A study of Homo sapiens with 2 samples.

Results

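The IGF2BP genes (IGF2BP1, IGF2BP2 and IGF2BP3) and the FMR1 family (FMR1, FXR1 and FXR2) encode RNA-binding proteins with KH domains that are counted among the readers of N6-methyladenosine (m6A), a methyl mark on mRNA. Their transcripts were examined in an RNA immunoprecipitation sequencing (RIP-seq) list of regions recovered with HNRNPC. A peak belonged to one of the 6 genes when its summit lay within the gene's RefSeq span on human genome build 38, and 28 of 23148 peaks did so. The study used A549 cells, a long-established line from a human lung cancer of the non-small cell kind, with 1 library precipitated with 5 µg of an antibody to HNRNPC (HNRNPC IP) and 1 input library made without that antibody. The peaks are those of the HNRNPC IP library, and the values of the input library itself were not analysed here. The series concerns HNRNPC as an m6A reader. With 1 library in each group there was no replicate check, so no difference was tested and no p-value is given for any comparison. A peak list carries no expression values, so markers of the cell line were not checked, and the amount of each transcript is unknown.

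HNRNPC is an abundant nuclear RNA-binding protein that coats nascent transcripts and is known to prefer runs of U, some of which become more accessible when a nearby adenosine is methylated. IGF2BP proteins bind mRNA in the cytoplasm, where they are known to stabilise targets such as MYC mRNA. IGF2BP1 and IGF2BP3 are called oncofetal because they are abundant in embryos and tumours and scarce in most adult tissues, whereas IGF2BP2 is also made in adults. FMR1 encodes FMRP, a repressor of translation whose loss causes fragile X syndrome, and FXR1 and FXR2 are its autosomal paralogs, which share its KH domains and ribosome association.

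HNRNPC peaks lay in 4 of the 6 genes and were unevenly divided among them. FMR1 held 14 peaks, IGF2BP3 held 9, IGF2BP1 held 4 and FXR1 held 1, while IGF2BP2 and FXR2 held none. Over all protein-coding genes, 3440 of 20037 (17.2%) had a peak. The split ran through both families, each of which had 2 genes with a peak and 1 without. With q of 0.001 or less the single FXR1 peak was lost, and 3 of the 6 genes kept a peak. No summit of the 28 fell within any other annotated gene that overlaps these spans. The list has no strand, so RNA from the opposite strand cannot be told apart.

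Gene length did not follow the order of the counts. FMR1, at 39.2 kb the second shortest of the 6 genes, had the most peaks and a density of 35.7 per 100 kb (95% exact Poisson interval 19.5 to 59.9). IGF2BP1, over 59.6 kb, had 6.71 per 100 kb (1.83 to 17.2). IGF2BP3, over 160 kb, had 5.62 (2.57 to 10.7). The interval of FMR1 lay above those of both IGF2BP genes, whose intervals overlapped each other. FXR1, over 70.1 kb, had 1.43 per 100 kb (0.0361 to 7.95). For the genes without a peak, a count of 0 has an upper bound of 2.03 per 100 kb over the 182 kb of IGF2BP2 and of 15.6 over the 23.7 kb of FXR2. These intervals cover counting error only and treat the peaks of a gene as independent, which neighbouring peaks are not. Pooled over protein-coding genes the density was 1.68 per 100 kb. It differed between the span classes described next. It was 3.13 in the class of FMR1, 2.84 in that of IGF2BP1 and FXR1, and 2.11 in that of FXR2. In the class of IGF2BP2 and IGF2BP3 it was 0.868.

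Beside genes of like length, FMR1 was among the few with so many peaks, and the others were not. Protein-coding genes were divided by span into 10 classes of equal number. In the class of FMR1 (35.3 to 52.3 kb) 26.2% of 2004 genes had a peak, and 29 (1.45%), FMR1 included, had 14 or more. In the class shared by IGF2BP1 and FXR1 (52.3 to 83.5 kb) 30.2% of 2003 genes had a peak, and 17.9% had at least the 4 of IGF2BP1. In the longest class, from 152 kb upward, 32.3% had a peak and 13.2% had at least the 9 of IGF2BP3. The absence of a peak in IGF2BP2 was thus shared by most genes of its class, and so was that in FXR2, since 12.3% of genes of 16.3 to 24.1 kb had one. Among the protein-coding genes with a peak, 4.39% were as densely covered as FMR1, against 50.7% for IGF2BP1 and 56.2% for IGF2BP3.

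**Figure D1:**
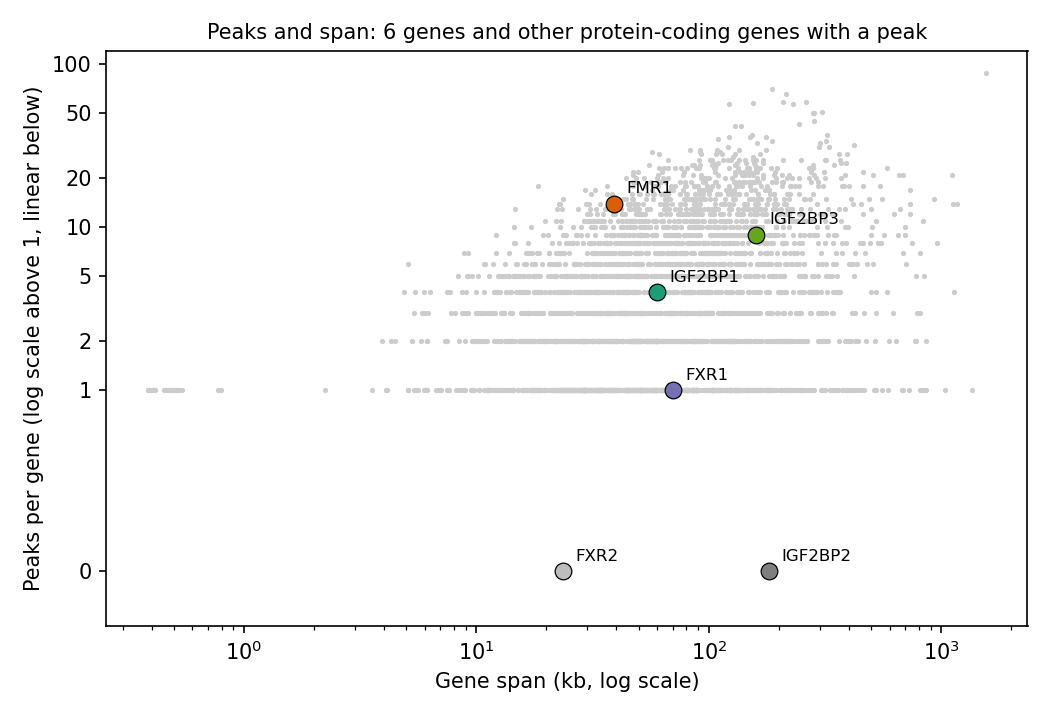
Number of peaks per gene (vertical axis, log scale above 1) against gene span in kb (horizontal axis, log scale); coloured points are the 6 genes and grey points the other protein-coding genes with at least 1 peak. FMR1, with 14 peaks over 39.2 kb, lies near the upper edge of genes of its span, and IGF2BP2 and FXR2 lie at 0.

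Genes nearest to each member in span and count were also looked up. Nearness was the sum of the absolute log2 ratios of the spans and of the peak counts plus 1. For FMR1 these were PUS7L, with 14 peaks over 39.8 kb, and UBE4A, with 15 over 39.6 kb. The highest fold of FMR1, 12.6, lay above those of both, 7.70 and 10.6. Other genes of like span and count went higher, such as NUFIP2, at 20.6 with 15 peaks over 38.3 kb. In the span class of FMR1, 9.33% of genes with a peak had a highest fold at least as great as that of FMR1. Those genes had a median of 4 peaks against the 14 of FMR1, and more peaks give more chances of a high fold. IGF2BP3 had a highest fold of 9.16, against 7.70 and 6.73 in its nearest genes, ATP8B1 and the kinase gene MTOR, each also with 9 peaks. In the span class of IGF2BP3, 31.0% of genes with a peak reached at least 9.16, with a median of 6 peaks. For IGF2BP1 the nearest were MORC4 and CAPZA2, with 4 peaks each and highest folds of 5.32 and 14.98, so genes alike in count and span differed widely in fold.

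Peaks of FMR1 filled the part of the gene away from its start. FMR1 (NCBI gene 2332) spans chromosome X, 147911919 to 147951125, on the forward strand. One peak had its summit 301 bp after the annotated start, at 147912185 to 147912249, and had a fold of 5.59, where fold is the authors' enrichment of the peak over the background of the peak caller. After a stretch of 13.4 kb without a peak, the other 13 summits lay within 24.0 kb, which is 61.1% of the span. In the order of the transcript their folds were 6.24, 11.2, 4.78, 5.59, 11.7, 12.6, 3.998, 9.48, 6.39, 4.13, 6.12, 3.31 and 6.41. High and low peaks were thus interspersed along the gene, and the 4 highest lay between 16.4 and 28.7 kb from the start.

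The highest FMR1 peak, at chromosome X, 147936511 to 147936600, was 90 bp wide, and its fold was 12.6 at a −log10 q of 17.7. It ranked 697 of 23111 peaks by fold, so that 3.36% of peaks were at least as high. The peaks at 147932460 to 147932588 and 147928341 to 147928415 followed, with folds of 11.7 and 11.2. In contrast, the lowest, at 147948735 to 147948963 near the far end of the gene, reached a fold of 3.31 at a −log10 q of 2.24. The median of the 14 was 6.18, against 5.76 for all peaks, and 8 of the 14 exceeded that value. By its highest peak FMR1 ranked 304 of 3588 genes with a peak. Widths ran from 47 to 239 bp with a median of 119 bp, against 125 bp for all peaks. Neighbouring summits were a median of 2393 bp apart, and the closest pair, 369 bp apart, joined a peak of fold 11.2 to one of 4.78.

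The autosomal paralogs of FMR1 stood at the other end of the range. FXR1 (NCBI gene 8087; chromosome 3, 180912670 to 180982753, forward strand) had a single peak of 69 bp at 180947854 to 180947922. Its summit lay 35.2 kb after the annotated start, close to the middle of the gene. The fold was 4.08 and the −log10 q 2.70, and 96.3% of the genes with a peak had a highest fold at least as great. FXR2 (NCBI gene 9513; chromosome 17, 7591230 to 7614897, reverse strand) had no peak.

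**Figure D2:**
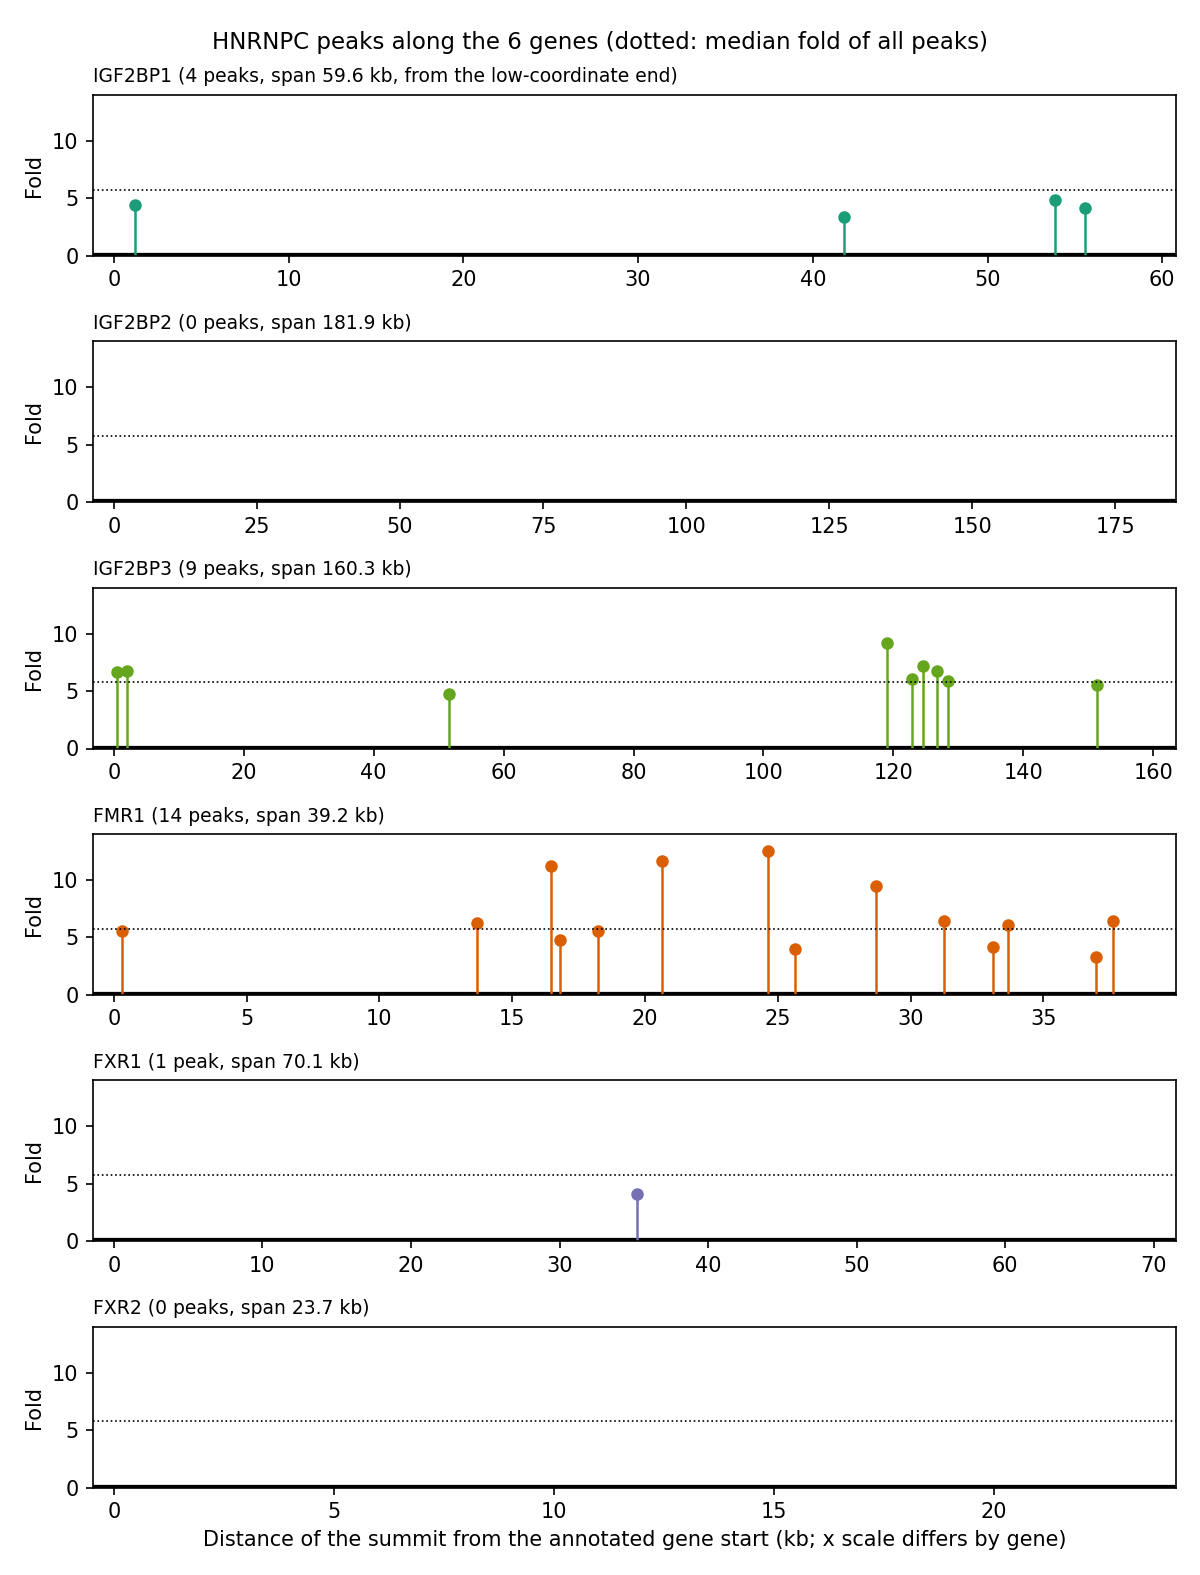
Position of each peak summit along the 6 genes, in kb from the annotated start (for IGF2BP1 from the end with the lower coordinate), with the fold of the peak as the height of the line; the x scale differs between genes and the dotted line is the median fold of all peaks, 5.76. FMR1 has 13 summits in the 24.0 kb toward its far end, and 5 of the 9 summits of IGF2BP3 lie within 9.45 kb.

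IGF2BP3 carried its peaks in groups separated by long empty stretches. The gene (NCBI gene 10643) spans chromosome 7, 23310209 to 23470491, on the reverse strand, so that its start is at the higher coordinate. A pair of summits lay 0.413 and 1.96 kb after the start, with folds of 6.66 and 6.73. The first of these, at 23469931 to 23470435, was the widest of the 28 peaks at 505 bp. It ended 7 bp from the window of 250 bases before to 50 bases after the start that RefSeq gives for this gene, and no peak overlapped such a window in any of the 5 genes that have one. A lone peak of fold 4.79 followed at 51.7 kb. Next, 67.3 kb further on, came a run of 5 summits within 9.45 kb, or 5.90% of the span.

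Within that run the folds were 9.16, 6.04, 7.22, 6.73 and 5.85 in the order of the transcript. The first, at 23351295 to 23351572, was 278 bp wide with a −log10 q of 12.1, and it was the highest peak of the IGF2BP family. It ranked 2565 of 23111 by fold. The last peak of the gene, at 23319150 to 23319266, had a fold of 5.57 and lay 151 kb after the start. The 9 folds had a median of 6.66, and 7 exceeded the median of all peaks. The spread was narrower than in FMR1, from 4.79 to 9.16 against 3.31 to 12.6.

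IGF2BP1 had peaks of low fold throughout. The gene (NCBI gene 10642) spans chromosome 17, 48996558 to 49056145. The 4 peaks, in order of coordinate, had folds of 4.40, 3.41, 4.90 and 4.14, all below the median of all peaks. Their −log10 q ran from 2.76 to 4.804. The first, at 48997720 to 48997813, had its summit 1.23 kb from the end of the span with the lower coordinate, and the highest, at 49050394 to 49050556, lay 53.9 kb from that end. The widest, 264 bp at 49052101 to 49052364, followed 1706 bp later. By its highest fold IGF2BP1 ranked 3053 of the 3588 genes with a peak.

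IGF2BP2 (NCBI gene 10644; chromosome 3, 185643130 to 185825042, reverse strand) had no peak over the longest span of the 6 genes. The nearest summit lay 19.1 kb outside it, in SENP2, a SUMO protease gene, with a fold of 6.67. Summits within 5 kb of either end of a span numbered 3 of 14 in FMR1, 0 of 1 in FXR1, 2 of 9 in IGF2BP3 and 2 of 4 in IGF2BP1. The other summits lay further inside the genes. The ends make up a different share of each span, and the counts were not compared with placement by length. No preference for the inside or the ends follows from them. Exons, introns and UTRs were not resolved here.

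**Figure D3:**
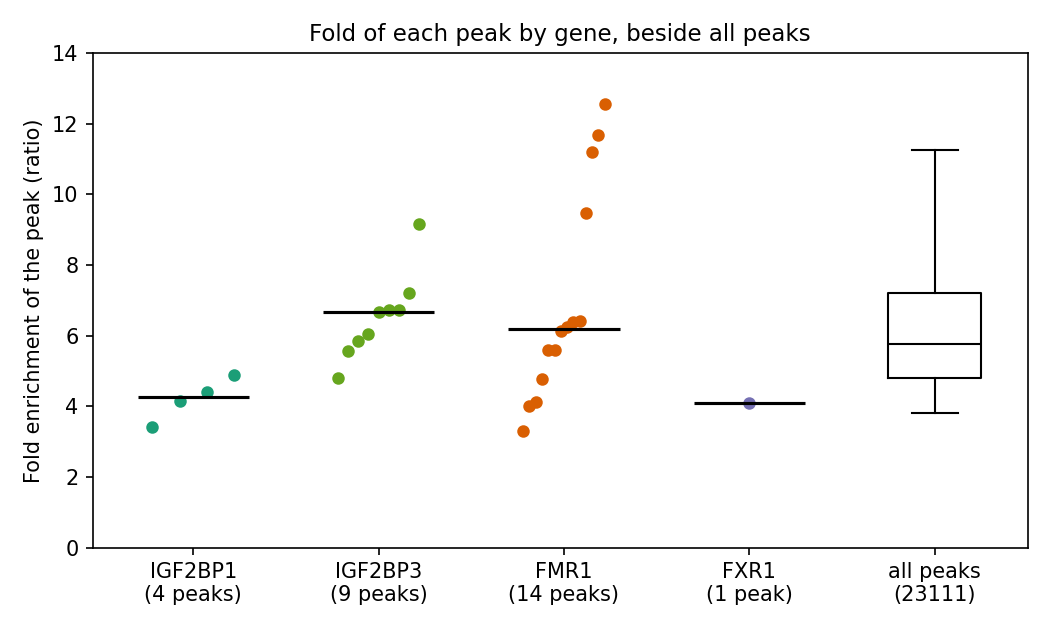
Fold enrichment of each peak (vertical axis, ratio) in the 4 genes with a peak, with the median of each gene as a bar, beside a box of all 23111 peaks (median 5.76, box from 4.79 to 7.22, whiskers from 3.82 to 11.2 at the 5th and 95th percentiles). The FXR1 peak and the IGF2BP1 peaks other than the highest, at 4.90, lie below the box, as do 4 FMR1 peaks, at 3.31 to 4.78, while 3 FMR1 peaks lie at 11.2 or higher.

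Fold depends on the IP reads and on the caller's background level for the peak, and these parts were separated. That level, called the control level here, need not be the number of control reads at the summit. MACS2, which the submitters' processing notes name, is known to compute fold as IP pileup plus 1 over control level plus 1 and p from a Poisson distribution. Both were solved for each peak, and a solution was kept only if its pileup was a whole multiple of 0.535, to within 0.02 of a read. The value 0.535, taken as the weight of 1 IP read, was fitted to the same peaks. The closeness to whole reads is therefore a rule of the method and not a result. Where several solutions fitted, that at the lowest control level or at a whole-number level was kept, provided only 1 such solution remained. With this rule a solution was kept for 22377 of the 23111 peaks (96.8%), including all 28 described here. How many peaks the rule decided was not counted, and it favours the lowest level. On this reading the IP library was 1.87 times as deep as the control, and the lowest control level, at which 49.1% of the solved peaks stood, was 0.103. Whether the input library was that control is not given in the sources used here, so these read numbers are inferred values.

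The inferred reads put IGF2BP1 and FMR1 in another order than fold did. At the 4 IGF2BP1 summits there were 31, 30, 29 and 27 IP reads, over control levels of 3, 4, 2.37 and 2.73. The highest FMR1 peak had 24 IP reads (95% exact Poisson interval 15.4 to 35.7), fewer than any of these, over the lowest control level of 0.103. Its fold, a ratio to the control, was nonetheless 2.56 to 3.68 times theirs. The intervals of these read numbers overlap, for example 21.1 to 44.0 for the 31 reads of IGF2BP1, so the order of IP reads is not beyond counting error.

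The same held within FMR1. Its summits had 11 to 29 IP reads with a median of 22. The 3 peaks with the most reads, 29, 29 and 28, were the 3 of lowest fold, at 4.13, 3.31 and 3.998, and stood at control levels of 3, 4 and 3. The 4 peaks of highest fold had 24, 23, 22 and 18 reads at control levels of 0.141 or lower. The 5 peaks with a control level under 1 had folds of 6.24 to 12.6, and the other 9 had folds of 3.31 to 6.41. A listed peak needs more reads at a higher control level, as given below. Many reads beside a low fold, here and in IGF2BP1, are thus partly set by the listing.

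The summits of IGF2BP3 had 8 to 23 IP reads with a median of 12, against a median of 14 for all peaks (quartiles 10 and 21). The control level was under 1 at 7 of its 9 summits, and all peaks with such a level had a median of 11 IP reads. At the highest peak 17 IP reads (9.90 to 27.2) stood over 0.103. The widest peak, at the start of the gene, had the most reads, 23, at a control level of 1. The FXR1 summit had 21 IP reads at a control level of 2.

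**Figure D4:**
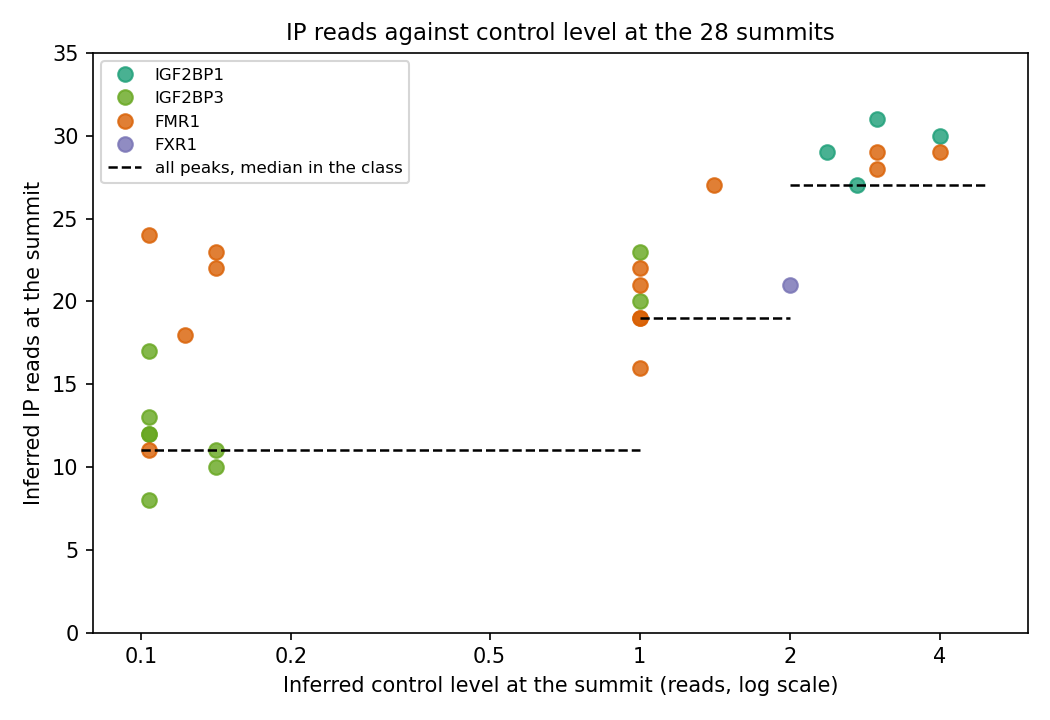
Inferred IP reads at each of the 28 summits (vertical axis) against the inferred control level (horizontal axis, log scale), by gene; some points coincide, and dashed lines are the medians of all peaks with a control level under 1, from 1 to under 2 and from 2 to under 5. IGF2BP1 lies at the upper right, with 27 to 31 IP reads over control levels of 2.37 to 4, and 4 FMR1 peaks have 18 to 24 reads at control levels of 0.141 or lower.

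Beside peaks of a like control level, FMR1 lay well above the median where the control was under 1 and near it elsewhere. With a control level under 1, the 5 FMR1 peaks had a median fold of 11.2 and the 7 IGF2BP3 peaks one of 6.73, against 6.24 for 15437 peaks of all genes. From 1 to under 2, the 6 FMR1 peaks had a median of 5.85 and the 2 IGF2BP3 peaks one of 6.26, against 5.56 for 3911 peaks. From 2 to under 5, the 3 FMR1 peaks had a median of 3.998, the 4 IGF2BP1 peaks 4.27 and the FXR1 peak 4.08, against 4.40 for 2485 peaks. The median fold of IGF2BP1 and the fold of FXR1 were therefore somewhat below the median of this class, which 1 of the 4 IGF2BP1 peaks exceeded. The class spans several levels, and FXR1, at a level of 2, stood at its lower end. Folds were not compared at single levels. No peak of the 6 genes had a control level of 5 or more, as 2.43% of the solved peaks did.

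The control level also set how many reads a listed peak needed. The fewest IP reads at any listed peak were 6 at the lowest control level, 14 at a level of 1, 19 at 2 and 29 at 4. The FMR1 peak with 29 reads and the IGF2BP1 peak with 30, both at a level of 4, were thus at or next to the smallest number listed. The FXR1 peak, with 21 reads at a level of 2, was also close to the smallest number at its level. For IGF2BP2 and FXR2 the list says only that no position passed its threshold, and IP reads below these numbers were not detectable.

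Related genes carried peaks as follows, in lists chosen with earlier results of these data known. Of 13 other m6A readers 8 (61.5%) had a peak, against 17.2% of protein-coding genes. The highest folds were those of LRPPRC, at 12.1 over 13 peaks, EIF3A, a subunit of the translation initiation factor eIF3, at 9.86 over 2 peaks, YTHDF3, a YTH domain reader, at 7.997 over 6, and HNRNPC itself at 7.22 over 18. None reached the 12.6 of FMR1. ELAVL1, HNRNPA2B1, PRRC2A, RBMX and SND1 had no peak.

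Among 29 other genes of KH-domain proteins, 10 (34.5%) had a peak, against 17.2% of all protein-coding genes and 26.2 to 32.3% in the longer span classes given above. QKI, a regulator of splicing, reached a fold of 17.4 over 10 peaks and BICC1 17.1 over 26, both above FMR1. FUBP3 followed at 11.1 over 9 peaks and the poly(C)-binding protein gene PCBP2 at 9.30 over 1. ANKHD1 is counted among the 19 without a peak, although 8 summits lie in its span, because another protein-coding gene overlaps it at those summits.

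Partners of FMRP and proteins of stress granules, the cytoplasmic bodies in which stalled mRNAs collect, had a peak in 13 of 22 genes (59.1%), against the same 17.2%. NUFIP2, an FMRP-interacting protein, had a fold of 20.6 over 15 peaks, and the translational repressor gene PUM2 18.4 over 26. The stress granule gene G3BP2 had 16.5 over 8 peaks, and the RNA helicase gene DDX3X had 15.2 over 16. Of these 22 genes 5 had a fold at least as high as that of FMR1. The median of the highest folds was 11.1 in this list, against 7.11 for protein-coding genes with a peak. The 13 genes held 130 peaks, and a gene with more peaks has more chances of a high fold. The medians were not matched in number of peaks.

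Transcripts known as IGF2BP targets or partners had a peak in 9 of 22 genes (40.9%), against 17.2% of protein-coding genes. Their median highest fold was 9.07, against 7.11 for protein-coding genes with a peak. These lists were not matched to other genes in span or in number of peaks. Among them the cell cycle kinase gene CDK6 had a fold of 17.4 over 7 peaks and the helicase gene DHX9 had 12.1 over 7. The 13 genes without a peak included MYC, IGF2, H19, LIN28B and CD44, of which H19 is noncoding. Expression was not measured, so presence of the RNA and recovery with HNRNPC cannot be told apart in any of these counts.

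**Figure D5:**
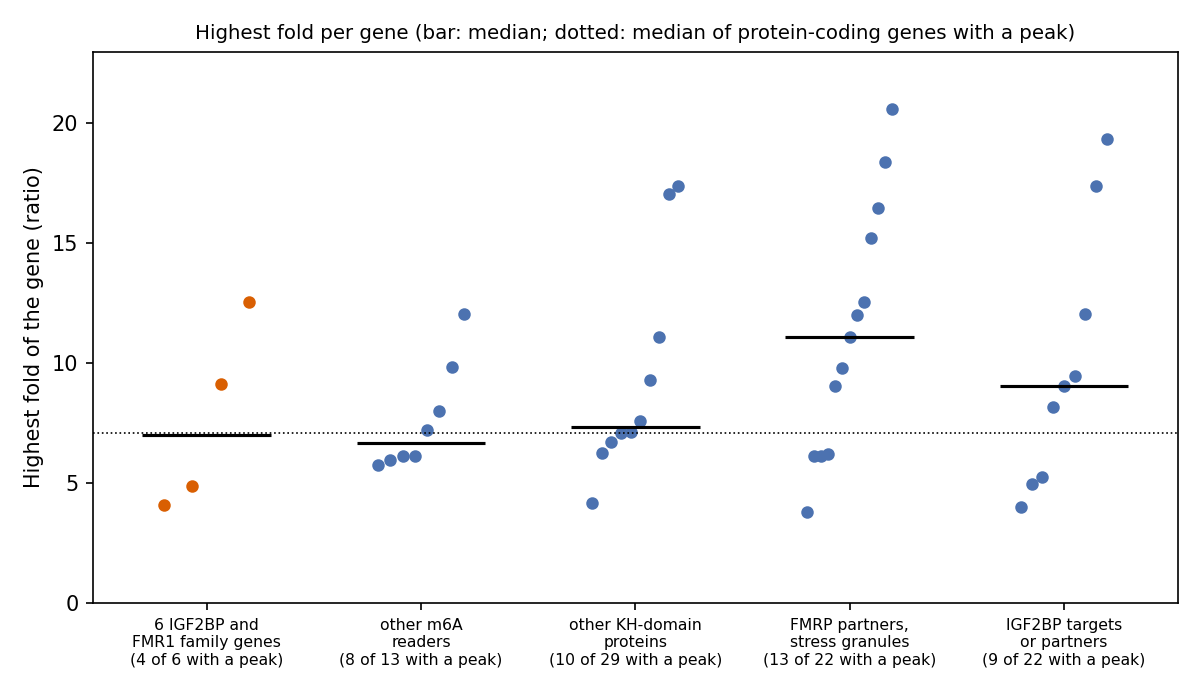
Highest fold of each gene with a peak (vertical axis, ratio) among the 6 genes and 4 lists of related genes, with the median of each group as a bar and that of protein-coding genes with a peak, 7.11, as a dotted line. The partners of FMRP and stress granule genes have the highest median, 11.1, and 4 of the 6 family genes have a peak.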

How the data were processed

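RIP-seq peaks of the HNRNPC IP library were used. Per the submitters' processing notes, the tools were HISAT2, MACS2 and bedtools on hg38; their roles, settings and versions are not given in the sources used here. The deposited file gives for each peak a fold enrichment, a ratio over the caller's background. It also holds the −log10 of p and of q, and a score, which in every deposited row equals 10 times that last value, cut to a whole number. Read totals are not given, so library depth is unknown.

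The 23111 peaks of the numbered chromosomes, X and Y were given, by summit, to RefSeq gene spans of GRCh38 patch 14, with protein-coding genes first; a summit in several genes counted for none. Strand came from RefSeq start windows, which hold none for IGF2BP1. Coordinates are 1-based. Members and lists were chosen with earlier results of these data known. Named genes were the 6 members, up to 4 genes of highest fold in each list, genes without a peak where 6 or fewer, and up to 2 like genes for each member with a peak. Some genes that this rule would name are not reported here. The absent genes named among IGF2BP targets were chosen after their values were seen. On simulated data all 2000 summits, among 59679 genes, were given by the rule to their gene, or to none where protein-coding genes overlapped. The same spans and rule defined the right answer, so this checked only the code. Of 4750 simulated peaks 89.2% gave a single read number, and all of those were right. The simulated peaks were made with the same formula, at the lowest control level or at whole numbers only. Those are the levels preferred where several solutions fitted, so the simulation could not show errors from that preference. Read numbers at levels in between were therefore not checked. Such levels were 2.37 and 2.73 in IGF2BP1, 0.141 in IGF2BP3, and 0.141, 0.122 and 1.41 in FMR1. They include those of the FMR1 peaks with folds of 11.7, 11.2 and 9.48. Alternatives took a smaller q (at most 0.001), a fold of at least 4, different rules of overlap, other distances and other span windows. The software was scipy 1.17.1, pandas 2.3.3, numpy 2.4.6 and matplotlib 3.10.9 under Python 3.11.15. Peak sequences and protein likeness need references not used here.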

Additional observations from a re-analysis of the deposited data

How the results depend on the processing

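Of 138 values under the alternatives, 134 stayed within 1.5 times the reported count or share, or within 10% of the reported fold. Many of these had little room to move, so that number says little about stability. Among them were counts of 0 in IGF2BP2 and FXR2, densities that repeat their counts, and highest folds after lower peaks were removed. With q of 0.001 or less FXR1 had 0 peaks and a density of 0, since its single peak was above that limit, which leaves no share of like genes for it, and 23 of the 28 peaks were kept. With a fold of 4 or more 25 were kept. At a distance of 2 kb from the span ends IGF2BP1 had 1 summit in place of 2, and at 10 kb FMR1 had 6 in place of 3, as a shorter or longer distance takes in fewer or more. Each of the 28 peaks rested on 8 to 31 inferred IP reads, and how the list would change with depth was not tested. No paired analysis was possible because each group holds 1 library, and no library could be left out.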
